A study of Mus musculus with 10 samples.

Results

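Loss of all 3 labelled isoforms of Mbd3 was set directly against loss of isoforms a and b in mouse embryonic stem cells, over the transcripts that the authors listed in both of their comparisons with wild type. The Mbd3abc KO line (genotype Mbd3abc -/-, CRISPR/Cas9 mutation in exon 5 of Mbd3), the Mbd3ab KO line (Mbd3ab -/-, mutation in exon 2) and the wild type were all E14 embryonic stem cells grown on gelatin, and 2 libraries of RNA depleted of ribosomal RNA were sequenced from each. Joining the deposited tables on transcript identifier gave 370 transcripts, each of a different gene, out of 443 in the Mbd3ab KO table, 8141 in the Mbd3abc KO table and 8774 in any of the 3 tables read. All 370 are therefore transcripts that the authors listed as changed against wild type in both mutants, and the 73 further transcripts of the Mbd3ab KO table are not compared here. Adrbk2 and Plek2 each had a deposited adjusted p of just over 0.05 in 1 of the tables, 0.0503 in the Mbd3abc KO table and 0.0502 in the Mbd3ab KO table. The labels call the 2 libraries of a group biological replicates. The labels do not say whether these were separate mutant clones, so the p-values measure the spread between these libraries, with that of the wild type pair pooled in.

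Mbd3 is a methyl-CpG binding domain protein that holds together the NuRD complex, which joins a chromatin remodelling ATPase to histone deacetylases. In embryonic stem cells NuRD is known for lowering the expression of pluripotency genes so that cells can leave self-renewal, and for keeping genes of other lineages, trophectoderm among them, from being expressed. Isoforms a and b carry all or part of the methyl-CpG binding domain, and isoform c starts from its own promoter with a different N terminus. The comparison asks how transcript levels differ when c is lost together with a and b, and it is made between 2 separately derived mutant lines.

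Levels are given as normalized reads, the authors' read values scaled to equal library totals and placed on the scale of the Mbd3abc KO table by the wild type libraries that both tables share. They are comparable between libraries for 1 transcript, not between transcripts. Values of a pair are given in the order ABC10D and ABCD7 for Mbd3abc KO, ABF2 and ABF3 for Mbd3ab KO, and E141 and E142 for wild type, the names in the column headings. Relative to E141, total reads were 1.23 and 1.33 times as many in the Mbd3abc KO libraries, 1.23 and 0.71 times in the Mbd3ab KO libraries, and 1.59 times in E142. The paired libraries of the mutants differed more than those of wild type, with a median gap on the log2 scale of 0.45 in Mbd3abc KO, 0.38 in Mbd3ab KO and 0.15 in wild type. ABC10D lay farther from wild type than ABCD7 for 254 transcripts, and ABF2 farther than ABF3 for 281. Of 7 embryonic stem cell markers only Dppa3 was among the 370, and 5 were listed in the Mbd3abc KO table, where Pou5f1 had 3046 and 4715 normalized reads in Mbd3abc KO against 10889 and 11562 in wild type. Sox2 had 5432 and 6107 normalized reads in Mbd3abc KO and 4019 and 3844 in wild type. Esrrb had 7126 and 6151 against 12226 and 11659 in wild type, and Klf4 5584 and 4315 against 2578 and 2247. Pou5f1, Sox2, Esrrb and Klf4 were thus present in Mbd3abc KO, at levels that differed from wild type. Dppa3, the other listed marker, had only 5.23 and 1.94 normalized reads in Mbd3abc KO against 192 and 232 in wild type. Nanog and Zfp42, the remaining markers, were not listed, so their levels are not known. Pou5f1, Sox2, Esrrb and Klf4 were not listed for Mbd3ab KO, so their levels there are not known.

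Of the 370 transcripts, 118 (31.9%) differed between the mutants in limma at an adjusted p below 0.05: 35 (9.46%) were higher and 83 (22.4%) lower in Mbd3abc KO. The libraries of the 2 mutants did not overlap for any of these 118, nor for 223 (60.3%) of all 370. The size of the called differences had a median of 1.37 on the log2 scale, and 97 reached 2-fold. Over all 370 the difference, Mbd3abc KO minus Mbd3ab KO on the log2 scale, ranged from -3.06 to 3.37 with a median of -0.19. Scaling by the trimmed mean of M values (TMM) over the joined transcripts moved this median to -0.06 and gave 42 higher and 57 lower calls, 42.4% of calls higher against 29.7%. The main test pools the spread of the closer wild type pair with that of the mutants. With only the 4 mutant libraries in the fit, 24 were called higher and 49 lower. With each of the 6 libraries left out in turn, 40 of the 118 kept their call every time. Leaving out ABF3, the shallowest library, gave the fewest calls, 47.

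**Figure D1:**
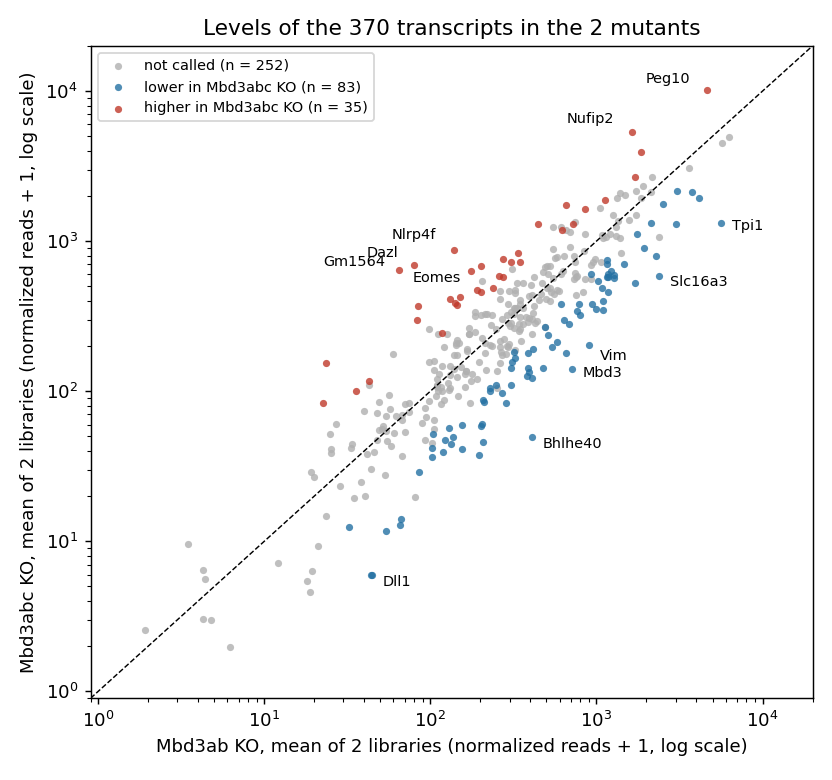
Mean level of each of the 370 transcripts in Mbd3abc KO (vertical) and Mbd3ab KO (horizontal), in normalized reads plus 1 on log axes, with 35 transcripts called higher in red, 83 called lower in blue and equality as the dashed line. Mbd3, Tpi1 and Slc16a3 lie well below the line, and Gm1564, Dazl and Nlrp4f well above it.

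The larger number of lower calls belonged to transcripts that both mutants had below wild type in the authors' deposited table of each comparison. Of these 149, 81 were called lower still in Mbd3abc KO, 0 higher and 68 neither, so that 54.4% were called lower, with a median log2 difference of -1.04. Of the 218 above wild type in both, 32 were called higher in Mbd3abc KO, 2 lower (Tead4 and Notch3) and 184 neither, with a median of 0.16. The remaining 3 stood on opposite sides of wild type. Because the transcripts were chosen by their difference from wild type, this division is a description with no test. The counts of the gene lists below are to be read against these shares and those of all 370, which are repeated for some of the lists only. The heat map of called transcripts shows it as deeper colour in the Mbd3abc KO columns.

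**Figure D2:**
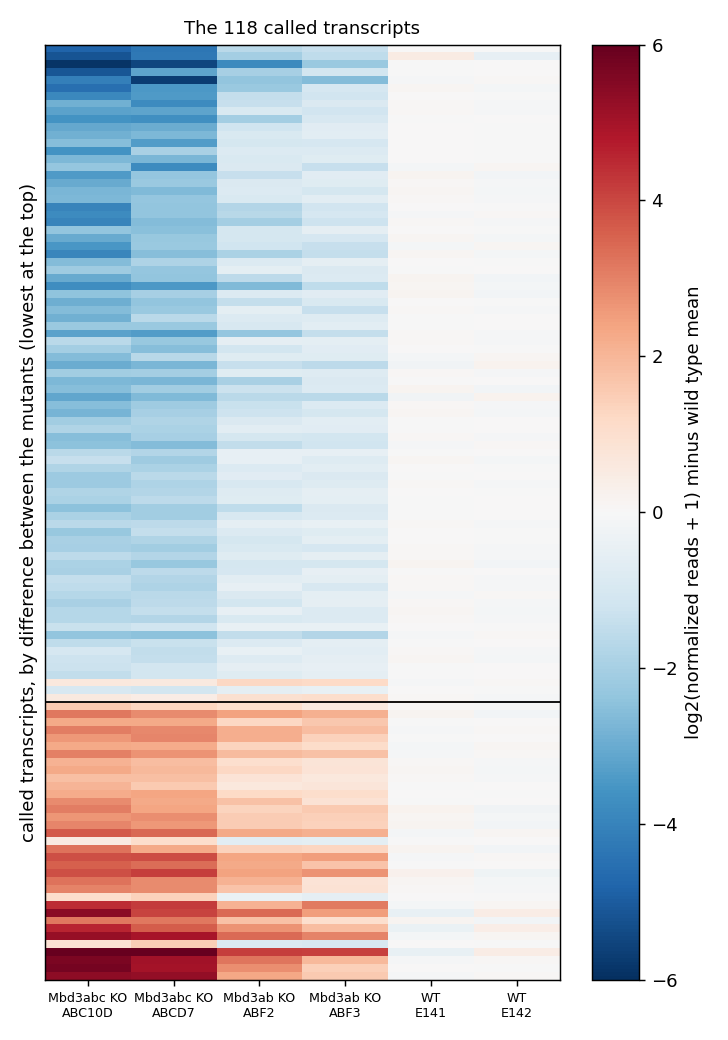
The 118 called transcripts (1 row each, ordered by the difference between the mutants) in the 2 Mbd3abc KO, 2 Mbd3ab KO and 2 wild type libraries, coloured by log2(normalized reads + 1) minus the wild type mean. The black line divides the 83 lower from the 35 higher calls, and in most rows the Mbd3abc KO columns stand farther from wild type than the Mbd3ab KO columns.

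Mbd3 itself, the targeted gene (chr10:80392541-80399479, minus strand, mm10), was lowest in the Mbd3abc KO. It had 117 and 161 normalized reads in Mbd3abc KO, 651 and 770.2 in Mbd3ab KO and 1778 and 1677 in wild type. The 3 groups were fully separated, and the mean in Mbd3abc KO was 5.11 times lower than in Mbd3ab KO (log2 difference -2.36, SE 0.24, adjusted p = 0.000907). The count sums reads over the exons of the gene, so it does not say which isoform the remaining reads came from. The call held with each library left out, with a highest adjusted p of 0.0133 without ABF3, and with the trend of level against GC content removed the difference was -1.71 (adjusted p = 0.00251). Of the 17 NuRD subunits and partners looked for, no other was among the 370.

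Transcripts of glycolysis and the hypoxia response were lower in the Mbd3abc KO than in the Mbd3ab KO: of the 48 genes of the list 8 were among the 370, all 8 below wild type in both mutants, and 7 of them were called lower, 0 higher. Of all transcripts below wild type in both mutants 54.4% were called lower, and of all 370 22.4%. The median log2 difference of the 8 was -1.87, against -1.04 over the 149 below wild type in both and -0.19 over all 370. Most respond to the hypoxia-inducible factors, the transcription factors that low oxygen stabilizes. In bulk RNA, fewer cells of a type and less RNA per cell cannot be told apart. Bhlhe40, a transcriptional repressor induced by hypoxia and part of the circadian clock, had the most negative difference of all 370. Its level was 40.8 and 56.1 normalized reads in Mbd3abc KO, 377 and 441 in Mbd3ab KO and 1184 and 1156 in wild type. Both Mbd3abc KO libraries lay far below both Mbd3ab KO libraries (log2 difference -3.06, SE 0.26, adjusted p = 0.00072).

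Among the enzymes and transporters of the list, Tpi1, the triose phosphate isomerase of glycolysis, had 1259 and 1376 normalized reads in Mbd3abc KO, 4619 and 6590.4 in Mbd3ab KO and 10863 and 10493 in wild type. Its mutants did not overlap, and the Mbd3abc KO mean was 4.25 times lower (log2 difference -2.07, SE 0.19, adjusted p = 0.000722). Slc16a3, which exports the lactate that glycolysis makes, had 555 and 621 normalized reads in Mbd3abc KO, 2189 and 2589 in Mbd3ab KO and 4113 and 4039.7 in wild type. The pairs were tight and well apart (log2 difference -2.02, SE 0.17, adjusted p = 0.00072). For Pfkfb3, which makes the sugar phosphate that activates the committed step of glycolysis, the Mbd3abc KO libraries had 43.9 and 46.5 normalized reads, the Mbd3ab KO libraries 222 and 191 and wild type 442 and 398. They too were fully separated (log2 difference -2.16, SE 0.28, adjusted p = 0.00285).

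The 3 other called members and Car12 were looked up after their values had been seen. Ddit4, an inhibitor of mTOR signalling induced by stress, had 315 and 323 normalized reads in Mbd3abc KO and 816 and 777 in Mbd3ab KO (log2 difference -1.32, SE 0.19, adjusted p = 0.00386). Bnip3, which acts in the removal of mitochondria, had 262 and 498 in Mbd3abc KO and 951 and 936 in Mbd3ab KO (log2 difference -1.38, SE 0.30, adjusted p = 0.0141). Egln3, a prolyl hydroxylase that marks hypoxia-inducible factors for destruction, had 68 and 181 in Mbd3abc KO and 296 and 461 in Mbd3ab KO (log2 difference -1.73, SE 0.45, adjusted p = 0.0231). In all 3 the Mbd3abc KO libraries were the lower ones, with ABC10D the lowest of Bnip3 and Egln3. Car12, a carbonic anhydrase, was not called, with 36.6 and 72.6 normalized reads in Mbd3abc KO and 51.4 and 45.4 in Mbd3ab KO, which overlap. Bnip3 lost its call without ABF2 (adjusted p = 0.0523) or ABF3 (0.0729), and Egln3 without ABC10D (0.0663) or ABF3 (0.153). The other 5 held with each library left out, and all 7 held with the GC trend removed, which moved Bnip3 to -2.57.

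**Figure D3:**
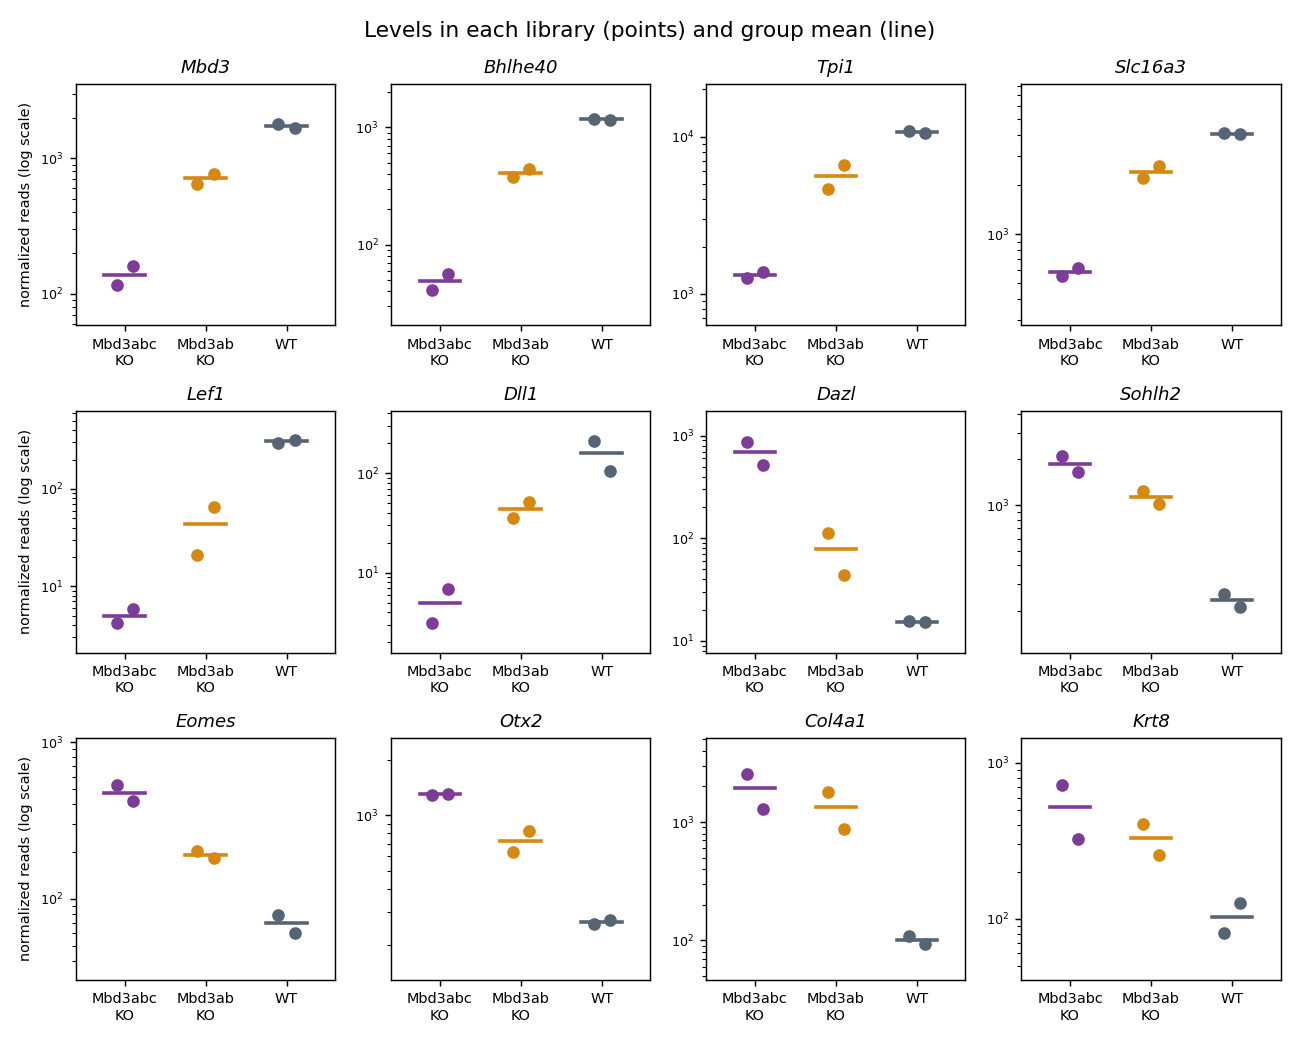
Level of 12 transcripts in each library, in normalized reads on a log axis, with Mbd3abc KO (purple), Mbd3ab KO (orange) and wild type (grey) from left to right and the mean of 2 libraries as a line. Mbd3, Bhlhe40, Tpi1, Slc16a3, Lef1 and Dll1 were called lower and Dazl, Sohlh2, Eomes and Otx2 higher in Mbd3abc KO, while the libraries of the mutants overlap for Col4a1 and Krt8.

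Shown are 4 of the promoters of this list that hold the core of the hypoxia response element, from RefSeq on GRCm38.p6 (mm10). Each is the 250 bases before the annotated start, 5′ to 3′ in the direction of the gene. Capitals mark the core of the hypoxia response element, ACGTG or GCGTG, on either strand, with overlapping matches merged into 1 run, as in CACGTG, which reads ACGTG on both strands.
Slc16a3 (chr11:120948817-120949066, plus strand): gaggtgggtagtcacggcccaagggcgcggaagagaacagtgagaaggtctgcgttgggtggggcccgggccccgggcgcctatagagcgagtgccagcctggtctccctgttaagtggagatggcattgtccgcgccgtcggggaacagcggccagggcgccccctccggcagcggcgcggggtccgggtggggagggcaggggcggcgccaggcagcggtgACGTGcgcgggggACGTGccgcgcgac
Pfkfb3 (chr2:11502091-11502340, minus strand): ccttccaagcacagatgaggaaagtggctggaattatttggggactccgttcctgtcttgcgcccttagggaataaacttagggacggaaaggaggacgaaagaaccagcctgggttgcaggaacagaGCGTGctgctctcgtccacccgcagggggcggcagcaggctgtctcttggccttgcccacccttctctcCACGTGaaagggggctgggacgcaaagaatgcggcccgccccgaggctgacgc
Bnip3 (chr7:138909507-138909756, minus strand): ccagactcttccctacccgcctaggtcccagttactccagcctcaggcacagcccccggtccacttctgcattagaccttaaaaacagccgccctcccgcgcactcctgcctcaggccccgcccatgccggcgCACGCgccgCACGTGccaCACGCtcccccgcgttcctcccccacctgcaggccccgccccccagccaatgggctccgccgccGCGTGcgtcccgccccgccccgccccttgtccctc
Ddit4 (chr10:59951771-59952020, minus strand): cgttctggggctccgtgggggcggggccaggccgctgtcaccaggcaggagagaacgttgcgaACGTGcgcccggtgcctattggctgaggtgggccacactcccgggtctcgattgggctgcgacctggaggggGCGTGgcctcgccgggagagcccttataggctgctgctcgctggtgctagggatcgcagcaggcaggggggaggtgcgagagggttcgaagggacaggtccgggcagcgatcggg
The core is short and common. It was found in 38.6% of 32851 promoters of this length in the table, in 152 (55.5%) of the 274 transcripts of the 370 that had a promoter there within 1000 bases of their deposited start, in 35 of 62 called lower (56.5%) and in 15 of 24 called higher (62.5%). Of 7 promoters of the glycolysis and hypoxia list, 5 held it, those shown and that of Egln3. The promoters of Tpi1 and Car12 did not hold it, and Bhlhe40 had no promoter there. Whether the core has a part in the differences was not tested. The match is a description of these letters and not of binding.

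Of 19 genes on the list of the circadian clock and its output factors 5 were among the 370, 4 of them below wild type, and 3 were called lower (Bhlhe40, Ciart and Nr1d1), 0 higher and 2 neither. Of transcripts below wild type in both mutants 54.4% were called lower. The median log2 difference of -1.19 is over all 5, 1 of them above wild type. Ciart, a repressor within the clock, had 27.2 and 43.6 normalized reads in Mbd3abc KO, 76.6 and 127 in Mbd3ab KO and 255 and 202 in wild type (log2 difference -1.49, SE 0.40, adjusted p = 0.0253). Nr1d1, the nuclear receptor REV-ERB alpha, which represses clock genes, had 58.6 and 53.2 in Mbd3abc KO, 116 and 141.7 in Mbd3ab KO and 307 and 344 in wild type (log2 difference -1.19, SE 0.29, adjusted p = 0.0196). In both transcripts the 3 groups followed each other without overlap. Npas2, a partner of the clock activator Bmal1, ran the other way at 83.7 and 34.9 in Mbd3abc KO and 28.3 and 23.6 in Mbd3ab KO, which did not pass the test (log2 difference 1.04, SE 0.73, adjusted p = 0.33). Ciart lost its call without ABC10D, ABF3, E141 or E142 (adjusted p = 0.0962, 0.144, 0.0558 and 0.0534), and Nr1d1 without ABF3, E141 or E142 (0.0779, 0.0702 and 0.0701) or with the GC trend removed (0.0561). The Ciart promoter carries the E-box CACGTG, the binding sequence of the clock activators, and is shown for that, with the E-boxes in capitals.
Ciart (chr3:95882229-95882478, minus strand): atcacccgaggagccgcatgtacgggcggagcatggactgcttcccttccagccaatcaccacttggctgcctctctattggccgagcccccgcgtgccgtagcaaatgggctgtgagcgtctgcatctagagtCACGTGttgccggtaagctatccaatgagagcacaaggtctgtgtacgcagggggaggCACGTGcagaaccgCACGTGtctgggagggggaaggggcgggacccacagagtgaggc
This E-box was in 6.02% of all promoters of the table and in 21 of the 274 (7.66%), and of 4 promoters of the clock list the 1 shown held it.

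Of 44 genes on the list of the pluripotency network 4 were among the 370, all 4 below wild type in both mutants, and 3 were called lower in Mbd3abc KO, 0 higher, against 54.4% lower among all transcripts below wild type in both. Nr0b1, a nuclear receptor that works with the core pluripotency factors in embryonic stem cells, had 339.9 and 457 normalized reads in Mbd3abc KO, 1041 and 1146 in Mbd3ab KO and 2019.6 and 1654 in wild type (log2 difference -1.47, SE 0.22, adjusted p = 0.00386). Lefty1, an inhibitor of Nodal, had 170.5 and 251 in Mbd3abc KO, 477 and 685 in Mbd3ab KO and 1310.3 and 1304 in wild type (log2 difference -1.46, SE 0.28, adjusted p = 0.00844). The Mbd3abc KO libraries were the lowest in both. Dppa3, a maternal factor that protects DNA methylation in the early embryo, had 5.23 and 1.94 normalized reads in Mbd3abc KO and 30.4 and 5.45 in Mbd3ab KO against 192 and 232 in wild type, and with ABF3 about as low as ABC10D its difference did not pass the test (log2 difference -1.73, SE 0.77, adjusted p = 0.137, 95% interval -3.52 to 0.06). It was called in DESeq2 (adjusted p = 0.0272) and without ABF3 (0.0413). Nr0b1 held in every alternative, and Lefty1 was lost without ABF3 (adjusted p = 0.0511).

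Of 3 Wnt pathway genes among the 370, all below wild type, 2 were called lower in Mbd3abc KO, near the share of all transcripts below wild type in both mutants. Lef1, a transcription factor through which beta-catenin activates its targets, had 4.18 and 5.81 normalized reads in Mbd3abc KO (4 and 6 reads), 21 and 65.4 in Mbd3ab KO and 298 and 317 in wild type (log2 difference -2.69, SE 0.56, adjusted p = 0.0114). Ccnd1, the D-type cyclin that Wnt signalling activates in several tissues, had 644 and 845 in Mbd3abc KO and 1097 and 1215 in Mbd3ab KO (log2 difference -0.65, SE 0.20, adjusted p = 0.0429). Both were lowest in the Mbd3abc KO libraries. Ccnd2 had 3.14 and 5.81 normalized reads in Mbd3abc KO and 3.15 and 30.9 in Mbd3ab KO against 445 and 469 in wild type, so that ABF2 matched the Mbd3abc KO libraries, and it was not called (log2 difference -1.12, SE 0.87, adjusted p = 0.369) except without ABF2 (adjusted p = 0.0179). Lef1 lost its call without ABC10D (adjusted p = 0.0539) or ABF3 (0.0559). Ccnd1 held only without ABCD7 among the libraries left out, with adjusted p between 0.068 and 0.154 in the others, and was not called under TMM scaling.

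In the Notch pathway 3 of the 4 members were called lower, against 22.4% of all 370. Of the 4, 3 were below wild type in the Mbd3ab KO, and 54.4% of the transcripts below it in both mutants were called lower. Dll1, a Notch ligand, had 3.14 and 6.78 normalized reads in Mbd3abc KO (3 and 7 reads), 35.7 and 50.9 in Mbd3ab KO and 213 and 104 in wild type (log2 difference -2.94, SE 0.53, adjusted p = 0.00739). Jag1, another ligand, had 80.5 and 138 in Mbd3abc KO, 233 and 265 in Mbd3ab KO and 597 and 514 in wild type (log2 difference -1.23, SE 0.32, adjusted p = 0.023). Both ligands were lowest in Mbd3abc KO and highest in wild type. The receptor Notch3 differed from them in its order, with 2277 and 2037 in Mbd3abc KO, 2979 and 3137 in Mbd3ab KO and 1600.5 and 1429.7 in wild type (log2 difference -0.51, SE 0.16, adjusted p = 0.0474). Its mutants both stood above wild type, the Mbd3ab KO farther. Maml1, a coactivator of the pathway, was not called (log2 difference -0.35, adjusted p = 0.352). Dll1 was lost without ABF3 (adjusted p = 0.0593), Jag1 without any library but ABCD7 (from 0.0528 to 0.106), and Notch3 without any but ABC10D (from 0.0652 to 0.155), at each other scaling and with the GC trend removed (0.831).

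Of 7 genes of FGF, LIF, Jak-Stat and MAP kinase signalling 3 were called lower and 0 higher. With 5 of the 7 below wild type, the count is near the 54.4% called lower among transcripts below it in both mutants. Rasgrp1, an exchange factor that activates Ras, had 4.18 and 19.4 normalized reads in Mbd3abc KO, 45.1 and 83.6 in Mbd3ab KO and 178 and 188 in wild type (log2 difference -2.60, SE 0.65, adjusted p = 0.0207). Jak3, a cytokine receptor kinase, had 75.3 and 189.7 in Mbd3abc KO, 285 and 499.6 in Mbd3ab KO and 1248 and 1101 in wild type (log2 difference -1.65, SE 0.45, adjusted p = 0.027). Pim2, a kinase induced by Stat factors, had 174 and 136 in Mbd3abc KO and 303 and 312 in Mbd3ab KO (log2 difference -0.995, SE 0.25, adjusted p = 0.0207). No library of Mbd3abc KO reached the Mbd3ab KO values of these 3. Fgf17, a secreted ligand, had 8.37 and 29 in Mbd3abc KO and 21 and 138 in Mbd3ab KO, which overlap, and was not called (log2 difference -1.72, SE 0.87, adjusted p = 0.186) except in DESeq2 (adjusted p = 0.0334) and without ABF2 (0.0294). Rasgrp1 and Jak3 lost their calls without ABC10D (adjusted p = 0.0571 and 0.0992) or ABF3 (0.143 and 0.177), and Pim2 without ABF3, E141 or E142 (0.0721, 0.0744 and 0.0732). With the GC trend removed Jak3 and Pim2 were not called (0.0801 and 0.199).

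Of 9 neural and axon guidance genes 6 were called lower in Mbd3abc KO and 0 higher, against 22.4% called lower of all 370. The 6 called were the 6 below wild type, and 54.4% of all transcripts below it in both mutants were called lower. The median log2 difference of -1.03 is over all 9, 3 of them above wild type. Vim, the intermediate filament protein vimentin, had 266 and 138 normalized reads in Mbd3abc KO, 746 and 1052 in Mbd3ab KO and 2051 and 1825 in wild type, 3 groups without overlap (log2 difference -2.20, SE 0.33, adjusted p = 0.00386). The secreted guidance cue Ntn1 (netrin) had 109 and 287 in Mbd3abc KO, 454 and 625 in Mbd3ab KO and 1824 and 1547 in wild type (log2 difference -1.59, SE 0.43, adjusted p = 0.0253). Slit2, a ligand of Robo receptors, had 32.4 and 55.2 in Mbd3abc KO, 131 and 133 in Mbd3ab KO and 293 and 250.2 in wild type (log2 difference -1.62, SE 0.35, adjusted p = 0.0136). In both guidance cues ABC10D was the lowest library. Nrp2, a receptor for semaphorins, had 275 and 405 in Mbd3abc KO and 767 and 758 in Mbd3ab KO (log2 difference -1.19, SE 0.24, adjusted p = 0.0097). Slit3 and the neuronal filament gene Ina, looked up after their values had been seen, were the other calls, at -1.03 (adjusted p = 0.0437) and -0.79 (0.0339) on the log2 scale. Vim held in every alternative, Slit2 and Nrp2 were lost without ABF3 (adjusted p = 0.0615 and 0.0511), and Ntn1 without ABC10D, ABF2 or ABF3 (0.0583, 0.0596 and 0.154) or with the GC trend removed (0.0561). Slit3 kept its call only without ABC10D, with adjusted p between 0.0929 and 0.137 in the others, and Ina lost it whichever library was left out, between 0.0549 and 0.134. Neither was called with the GC trend removed (0.129 and 0.0971). Vim was the only member of 6 fibroblast markers, and 0 of 5 neural and 0 of 5 mesoderm markers were among the 370. Nes, Pax6 and Tubb3 (neural), Mixl1 (mesoderm) and Col1a1 and Thy1 (fibroblast) were listed for Mbd3abc KO but not for Mbd3ab KO. Absence from the 370 therefore does not say that a marker was unexpressed or unchanged.

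**Figure D4:**
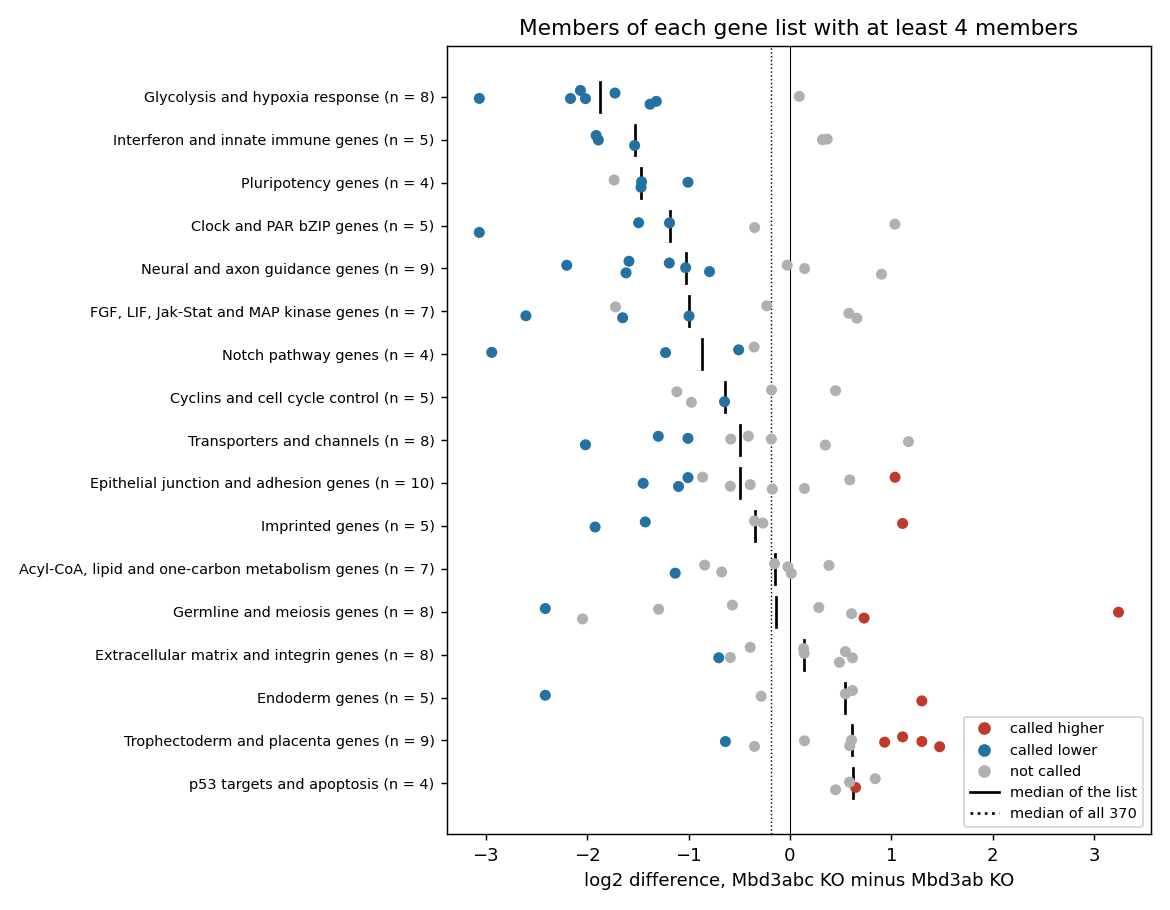
Difference between the mutants on the log2 scale (horizontal, Mbd3abc KO minus Mbd3ab KO) for each member of the 17 gene lists with at least 4 members, called higher in red, called lower in blue and not called in grey. The solid mark is the median of the list and the dotted line the median of all 370, -0.19, and the glycolysis and hypoxia list has the lowest median, -1.87.

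Genes of the formative state, trophectoderm and germ line held most of the higher calls on the lists. Eomes, a T-box factor of trophectoderm and early mesendoderm, had 531 and 419 normalized reads in Mbd3abc KO, 200.4 and 182 in Mbd3ab KO and 78.7 and 60.7 in wild type (log2 difference 1.30, SE 0.29, adjusted p = 0.0141). Otx2, a homeobox factor that marks the exit from the naive state, had 1287 and 1309 in Mbd3abc KO, 631 and 823 in Mbd3ab KO and 259 and 274 in wild type (log2 difference 0.85, SE 0.22, adjusted p = 0.0218). For both, the Mbd3abc KO libraries were the highest and wild type the lowest. With Lef1, described above and called lower, they were the 3 members among the 24 genes of the formative list. Thus 2 of the 3 were called higher and 1 lower, against 9.46% higher and 22.4% lower of all 370. Of the 3, 2 were above wild type, where 32 of 218 transcripts were called higher. Eomes was lost without ABC10D (adjusted p = 0.0549) or ABF3 (0.0615), and Otx2 without ABC10D, ABF2, E141 or E142 (0.0556, 0.0631, 0.0641 and 0.0644) or with the GC trend removed (0.075).

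Of 9 trophectoderm and placenta genes 4 were called higher and 1 lower, against 9.46% higher and 22.4% lower of all 370. Of the 9, 7 were above wild type, where 32 of 218 transcripts were called higher. Peg10, an imprinted gene derived from a retrotransposon and needed for the placenta, had 11867 and 8481 normalized reads in Mbd3abc KO, 4490.3 and 4796 in Mbd3ab KO and 2814 and 2944 in wild type (log2 difference 1.11, SE 0.18, adjusted p = 0.0043). Cyp11a1, the enzyme that starts steroid synthesis from cholesterol, had 89.9 and 107 in Mbd3abc KO, 31.5 and 38.1 in Mbd3ab KO and 6.45 and 4.05 in wild type (log2 difference 1.48, SE 0.44, adjusted p = 0.0354). Ppp2r2c, a regulatory subunit of protein phosphatase 2A, had 1252 and 1105 in Mbd3abc KO and 689 and 549 in Mbd3ab KO (log2 difference 0.93, SE 0.23, adjusted p = 0.0196). These 3 were highest in Mbd3abc KO with no overlap. Tead4, a transcription factor required for trophectoderm, was the lower one and was looked up after its value had been seen, with 603 and 594 in Mbd3abc KO, 943 and 919 in Mbd3ab KO and 375 and 415 in wild type (log2 difference -0.64, SE 0.20, adjusted p = 0.0429). Krt8 and Krt18, the keratins of simple epithelia, also looked up afterwards, were not called, at 0.59 and 0.14 on the log2 scale (adjusted p = 0.352 and 0.866), and for both the libraries of the mutants overlapped. Of 8 trophectoderm markers Eomes, Krt8 and Krt18 were among the 370, and Krt7 was listed for Mbd3abc KO but not for Mbd3ab KO. The summed level of Eomes, Krt8 and Krt18, in which the most abundant weighs most, was 1848 and 965 normalized reads in Mbd3abc KO, 1058 and 674 in Mbd3ab KO and 267 and 323 in wild type. The mutants overlap in this sum, and its part in the differences of the group was not tested. Peg10 held in every alternative. Cyp11a1 and Tead4 lost their calls whichever library was left out, with adjusted p between 0.0669 and 0.121 for Cyp11a1 and between 0.0562 and 0.158 for Tead4, and Tead4 also with the GC trend removed (0.334). Ppp2r2c lost its call without ABC10D, ABF3, E141 or E142 (0.0612, 0.0756, 0.0553 and 0.0534).

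Of 8 germ line genes 2 were called higher, 1 lower and 5 neither, against 9.46% higher and 22.4% lower of all 370. Of the 8, 3 were above wild type, where 32 of 218 transcripts were called higher. The other 5 were below it, and 54.4% of all transcripts below it in both mutants were called lower. For all 8 the libraries of the mutants did not overlap, as for 60.3% of all 370. Dazl, an RNA-binding protein needed for germ cells, had 874 and 521 normalized reads in Mbd3abc KO, 113 and 43.6 in Mbd3ab KO and 15.5 and 15.4 in wild type. Both Mbd3abc KO libraries stood far above both Mbd3ab KO libraries, and its mean was 8.89 times higher (log2 difference 3.24, SE 0.50, adjusted p = 0.0039). Sohlh2, a helix-loop-helix factor of early germ cell differentiation looked up after its value had been seen, had 2099 and 1659 in Mbd3abc KO, 1245 and 1014 in Mbd3ab KO and 258 and 211 in wild type (log2 difference 0.73, SE 0.23, adjusted p = 0.0429). Rhox5, an X-linked homeobox gene, was lower, with 16.7 and 4.84 in Mbd3abc KO, 57.7 and 49 in Mbd3ab KO and 289 and 319.8 in wild type (log2 difference -2.41, SE 0.54, adjusted p = 0.0142). Nanos3 and Tdrd12, an RNA-binding protein of primordial germ cells and a piRNA pathway protein, had differences of -2.05 and -1.30 on the log2 scale that did not pass the test (adjusted p = 0.0812 and 0.0545). Nanos3 was called without ABCD7 (0.00707), and Tdrd12 without ABCD7 (0.00919), with the GC trend removed (0.0389), in DESeq2 (0.0427) and with a minimum level of 50 (0.0495). Dazl held with each library left out, and with the GC trend removed its difference was 1.08 (adjusted p = 0.075). Its transcript has a GC content of 37.0%. Sohlh2 lost its call without any library but ABCD7 (from 0.0515 to 0.179) and with the GC trend removed (0.128), and Rhox5 without ABF2 (0.0631) or ABF3 (0.069).

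Among all higher calls above the median level, Gm1564 had the largest difference. It had 663 and 630.1 normalized reads in Mbd3abc KO, 79.7 and 47.2 in Mbd3ab KO and 14.2 and 16.2 in wild type, a mean 10.2 times higher in Mbd3abc KO than in Mbd3ab KO (log2 difference 3.37, SE 0.37, adjusted p = 0.00123). Nlrp4f, of the NLR family expressed in oocytes, had 1049 and 693 in Mbd3abc KO, 192 and 81.7 in Mbd3ab KO and 19.3 and 21.1 in wild type (log2 difference 2.76, SE 0.45, adjusted p = 0.0043). It has close paralogues, and the sources used here do not say how reads shared by them were counted. Hmga2, a chromatin architecture protein of undifferentiated cells, had 831 and 431 in Mbd3abc KO, 226 and 125 in Mbd3ab KO and 25.8 and 44.5 in wild type (log2 difference 1.82, SE 0.46, adjusted p = 0.0214). In each of these the order was the same, Mbd3abc KO highest and wild type lowest. Sppl2a, a protease that cuts within membranes, Lpgat1, an acyltransferase of phospholipids, Zak, a stress-activated kinase, and Heg1, a receptor needed in heart and vessels, followed with log2 differences of 1.80, 1.61, 1.61 and 1.41 (adjusted p = 0.00718, 0.0082, 0.0231 and 0.0251). Gm1564, Nlrp4f and Lpgat1 held in every alternative, but with the GC trend removed their log2 differences were 1.51, 1.59 and 0.88 (adjusted p = 0.0163, 0.0203 and 0.049). Hmga2 was lost without ABC10D or ABF3 (adjusted p = 0.11 and 0.136), Heg1 without ABC10D, ABF2 or ABF3 (0.0936, 0.0682 and 0.116) and Zak without ABC10D, ABCD7 or ABF3 (0.114, 0.052 and 0.0798). With the GC trend removed Hmga2, Zak and Sppl2a were not called (0.0549, 0.075 and 0.706), and the difference of Sppl2a was 0.19.

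Among the strongest lower calls outside the groups above, Sfmbt2, an imprinted Polycomb-group gene, had 228 and 129 normalized reads in Mbd3abc KO, 646 and 658 in Mbd3ab KO and 1362 and 1325 in wild type (log2 difference -1.92, SE 0.29, adjusted p = 0.00386). It was 1 of 5 imprinted genes, with Smoc1, a calcium-binding matrix protein, also lower at 143 and 142.3 in Mbd3abc KO and 341 and 436 in Mbd3ab KO (log2 difference -1.43, SE 0.24, adjusted p = 0.00532), Peg10 higher, and Peg3 and Phlda2 not called. Of all 370, 22.4% were called lower and 9.46% higher. In the Mbd3ab KO 4 of the 5 were below wild type, and 54.4% of all transcripts below it in both mutants were called lower. Adam19, a membrane metalloprotease, had 257 and 799 in Mbd3abc KO and 1706 and 1715 in Mbd3ab KO, with ABC10D far below ABCD7 and both below the Mbd3ab KO (log2 difference -1.91, SE 0.45, adjusted p = 0.0166). The receptor tyrosine kinase Ephb4 had 261 and 439 in Mbd3abc KO and 897 and 1086 in Mbd3ab KO (log2 difference -1.54, SE 0.27, adjusted p = 0.00684). N4bp3 and the zinc finger gene Zfp428 differed by -1.64 and -1.75 on the log2 scale (adjusted p = 0.00374 and 0.00386). Sfmbt2, Smoc1, N4bp3 and Zfp428 held in every alternative, with Zfp428 at -1.0001 once the GC trend was removed, Ephb4 was lost without ABF3 (adjusted p = 0.0511), and Adam19 without ABF2 (0.068) or ABF3 (0.0966).

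Of 5 interferon and innate immune genes 3 were called lower, against 22.4% of all 370 and 54.4% of those below wild type in both mutants, and 3 of the 5 were below wild type. Relb, a subunit of NF-kappaB, had 40.8 and 39.7 normalized reads in Mbd3abc KO, 144 and 165 in Mbd3ab KO and 276 and 268 in wild type (log2 difference -1.91, SE 0.29, adjusted p = 0.00386). Ifitm1, a membrane protein expressed in early germ cells, had 839 and 741 in Mbd3abc KO, 2511 and 2075 in Mbd3ab KO and 3678 and 3801 in wild type (log2 difference -1.53, SE 0.18, adjusted p = 0.00156). The related Ifitm3, which restricts the entry of viruses, had 179 and 64.8 in Mbd3abc KO, 482 and 336 in Mbd3ab KO and 819 and 969 in wild type (log2 difference -1.89, SE 0.46, adjusted p = 0.0185). All 3 were lowest in the Mbd3abc KO libraries. Nfatc2, a transcription factor activated by calcium, was not called (log2 difference 0.37, SE 0.23, adjusted p = 0.284). Phgdh, the first enzyme of serine synthesis, was the only call among 7 genes of lipid and one-carbon metabolism, lower at 716 and 1079 in Mbd3abc KO against 2053 and 1811 in Mbd3ab KO (log2 difference -1.13, SE 0.22, adjusted p = 0.00936). In the Mbd3ab KO 2 of these 7 were below wild type, to be read against the same shares. Relb, Ifitm1 and Phgdh held in every alternative, and Ifitm3 was lost without ABF2 (adjusted p = 0.0873) or ABF3 (0.0625).

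Of 10 junction and adhesion genes 3 were called lower, 1 higher and 6 neither, against 22.4% lower and 9.46% higher of all 370. Of the 10, 4 were below wild type, and 54.4% of all transcripts below it in both mutants were called lower. The other 6 were above it, where 32 of 218 transcripts were called higher. Pkp2, a desmosome protein, had 322 and 277 normalized reads in Mbd3abc KO and 611 and 672 in Mbd3ab KO (log2 difference -1.10, SE 0.20, adjusted p = 0.0082) and held in every alternative. The keratin Krt17 was lower (log2 difference -1.45, adjusted p = 0.0339) and Marveld2, the tricellular junction protein tricellulin, higher (1.04, 0.0384), and both lost their calls without any library but ABCD7 (from 0.053 to 0.141 for Krt17 and from 0.0743 to 0.126 for Marveld2) and with the GC trend removed (0.0904 and 0.074). Of 8 matrix and integrin genes only Lamb1, a laminin chain, was called, lower at -0.70 (adjusted p = 0.0339), and it too was lost without any library but ABC10D (from 0.0607 to 0.121) and with the GC trend removed (0.0515). Col4a1 and Col4a2, chains of basement membrane collagen transcribed from a shared promoter region, were far above wild type in both mutants. Col4a1 had 2567 and 1295 normalized reads in Mbd3abc KO, 1784 and 872 in Mbd3ab KO and 109.6 and 93.1 in wild type. The mutants overlapped, and the difference between them was 0.55 with a 95% interval of -0.42 to 1.52 (adjusted p = 0.362), and for Col4a2 0.62 with -0.34 to 1.58 (0.306).

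Of 4 p53 target genes, all above wild type in both mutants, only Ei24, a protein of the endoplasmic reticulum, was called, higher in Mbd3abc KO (log2 difference 0.65, SE 0.20, adjusted p = 0.0429). Among all 218 transcripts above wild type in both mutants 32 were called higher. Sesn1, Btg2 and Pmaip1 had log2 differences of 0.59, 0.45 and 0.84 (adjusted p = 0.143, 0.205 and 0.132), and for all 4 the mutants did not overlap, as for 60.3% of all 370. Pmaip1 was called without ABF2 (0.0323). Ei24 was lost without any library but ABCD7 or ABF2 (adjusted p from 0.102 to 0.197) and with the GC trend removed (0.0904). Of 5 cell cycle genes, 3 of them below wild type in the Mbd3ab KO, Ccnd1 was the only call, lower. Among all transcripts below wild type in both mutants 54.4% were called lower. Cdkn2a, which encodes the p16 and p19 inhibitors, had 22 and 31 normalized reads in Mbd3abc KO and 59.8 and 45.4 in Mbd3ab KO against 9.03 and 9.71 in wild type (log2 difference -0.97, SE 0.44, adjusted p = 0.143). The drug efflux pump Abcb1b, among 8 transporters with Slc16a3 and Slc27a2 among those called lower, had 1883 and 604 in Mbd3abc KO and 828 and 271 in Mbd3ab KO, too spread to be called (log2 difference 1.17, SE 0.64, adjusted p = 0.21). Slc27a2, a fatty acid transporter, had a log2 difference of -1.30 (adjusted p = 0.0359) and kept its call only without ABF2 among the libraries left out (from 0.0701 to 0.148 in the others).

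Nufip2, Ppid and Shcbp1 were above wild type in the Mbd3abc KO and below it in the Mbd3ab KO, in the authors' deposited table of each comparison. Nufip2, a partner of the fragile X protein, had 4801 and 5876 normalized reads in Mbd3abc KO, 1703 and 1559 in Mbd3ab KO and 2333 and 2218 in wild type (log2 difference 1.70, SE 0.17, adjusted p = 0.000855). Ppid, a cyclophilin that works with Hsp90, had 1428 and 2051 in Mbd3abc KO, 646 and 668 in Mbd3ab KO and 965 and 1012 in wild type (log2 difference 1.38, SE 0.22, adjusted p = 0.0043). Shcbp1, which binds the adaptor Shc, had 292 and 443 in Mbd3abc KO, 87.1 and 79.9 in Mbd3ab KO and 159.9 and 155 in wild type (log2 difference 2.09, SE 0.31, adjusted p = 0.00386). The choice of these transcripts by opposite sides of wild type in the same libraries fixes the direction of the difference between the mutants, so these values are a description. In each, wild type lay between the mutants with no overlap, and the call held with each library left out. These transcripts have GC contents of 39.2% (Nufip2), 41.4% (Ppid) and 40.4% (Shcbp1), and with the GC trend removed within each library none was called, at -0.0031, 0.15 and 0.64 (adjusted p = 0.997, 0.778 and 0.225).

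The difference between the mutants moved with the GC content of the transcript. Of 5 classes of equal size by GC, the lowest (36.7% to 48.9%, 74 transcripts) had a median log2 difference of 0.58, with 21 called higher and 7 lower. In the highest class (57.0% to 64.4%, 74 transcripts) the median was -0.52, with 0 called higher and 28 lower. The 3 classes between had medians of -0.08, -0.15 and -0.25. Over the 369 transcripts with a matched sequence Spearman's rho with GC was -0.33, over the 217 above wild type in both mutants -0.52, and over the 149 below it in both -0.22, given as descriptions over transcripts that share libraries. The median GC content was 47.5% for the 35 higher calls, 54.8% for the 83 lower calls and 52.4% for the 8 glycolysis and hypoxia members. The GC trend removed within each library, here and above, was that of log2 level relative to the mean of the transcript over the 6 libraries. It was fitted over these 369 transcripts. With it removed, 17 transcripts were called higher and 65 lower, and 77 of these 82 were among the 118.

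**Figure D5:**
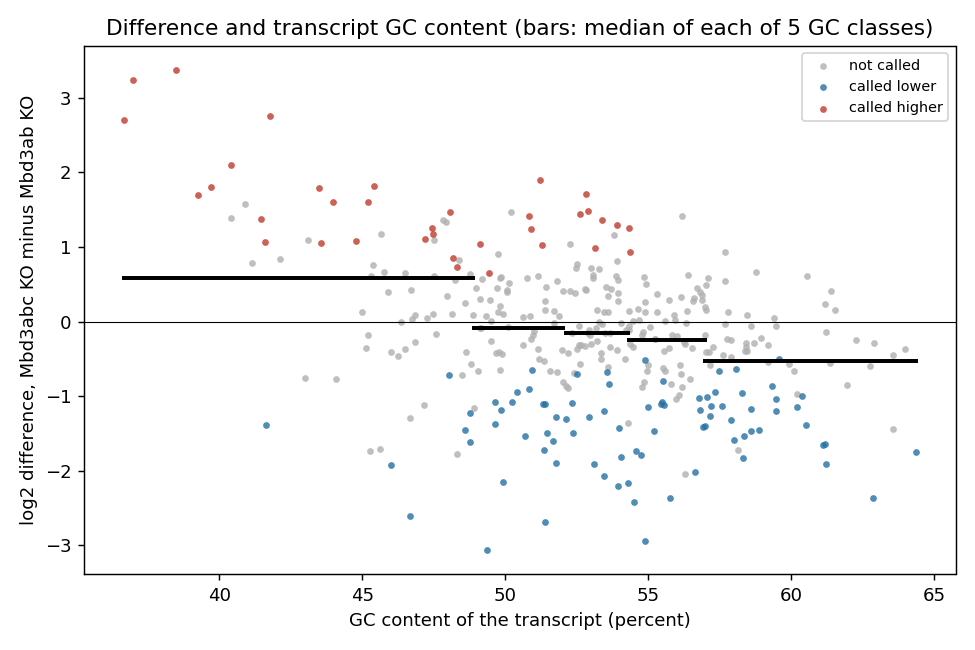
Difference between the mutants on the log2 scale (vertical, Mbd3abc KO minus Mbd3ab KO) against the GC content of the transcript in percent, for 369 transcripts, with calls in colour and the median of each of 5 GC classes as a black bar. The medians go from 0.58 in the lowest class to -0.52 in the highest.

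Chromosome 11 held 61 of the 370 transcripts (16.5%), against 8.44% of the Mbd3abc KO table and 7.35% of protein-coding genes in RefSeq. It held 23 of the 83 lower calls (27.7%) and 3 of the 35 higher calls, and its median log2 difference was -0.43. Of the 149 transcripts below wild type in both mutants 39 were on it (26.2%), and 59.0% of those 39 were called lower, against 54.4% of the 149. With chromosome 11 left out, an alternative chosen after seeing the data, 29 were called higher and 56 lower of 309. Karyotype was not measured, and the part of chromosome number in these values was not tested.

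The Mbd3cΔN-ab KO line (genotype Mbd3cdeltaN with ab -/-, mutation in exon 2) also lacks isoforms a and b, and 326 of the 370 transcripts were listed for it. Its levels were placed on the same scale by wild type. Of the 35 higher calls 33 were listed, with its mean between the 2 other mutants for 30 and beyond the Mbd3ab KO for 3. Of the 83 lower calls 81 were listed, 71 between, 9 beyond the Mbd3ab KO and 1 beyond the Mbd3abc KO. The calls were chosen on the other mutants, so these counts are a description. Mbd3 had 341 and 323 normalized reads in Mbd3cΔN-ab KO, between its levels in Mbd3abc KO and Mbd3ab KO. Dazl had 234 and 209 and Gm1564 309.9 and 369.8 there, also between. Bhlhe40 had 344 and 475, which overlap the Mbd3ab KO levels, and Pfkfb3 277 and 244, above them, while Tpi1, at 4433 and 4729, lay between the mutant means. Lef1 had 38.4 and 100.2 and Peg10 4784 and 3793, and both means were on the wild type side of the Mbd3ab KO mean.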

How the data were processed

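RNA sequencing libraries of Mbd3abc KO, Mbd3ab KO and wild type cells (2 each) were compared. Per the submitters' processing notes TopHat2, HOMER and DESeq2 were used, on mm10, and HOMER counted reads over exons by strand, 1 transcript per gene, per the file headers. Their versions and the aligner's settings are not stated. The read columns are a signal that the authors deposited as reads scaled to equal totals within each table, and the tables list only transcripts the authors selected. The deposited log2 fold changes and p-value columns, from DESeq2 per the file headers, were used for the side of wild type and for the 2 adjusted p-values over 0.05 that are given above. Each value was a whole multiple of 1 step per library (100% within 0.1 read), so reads were recovered, and the wild type reads agreed in both tables for 370 of 370 transcripts. The tables were joined by the ratio of their wild type columns, 1.138. Columns could be assigned to groups but not to replicate numbers, and 4 value columns of the Mbd3c KO table were not used.

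The main test was limma 3.58.1 (empirical Bayes with trend, two-sided, R 4.3.3) on log2(normalized reads + 1) over all 6 libraries, wild type sharing the estimate of the spread, with Benjamini-Hochberg adjustment over the 370 transcripts and a threshold of 0.05. A log2 difference with this pseudocount understates the change of low transcripts. Reads were also tested with edgeR 4.0.16 (quasi-likelihood) and DESeq2 1.42.0. The fits were tested on simulated data. Other alternatives were the scale, the pseudocount (0.5 and 10), a minimum level of 50, the libraries used, GC content and the threshold. GC content came from GENCODE M21 transcripts, matched for 369, and promoters from RefSeq. The members and the 23 gene lists were chosen with earlier results of these data known. The genes named are Mbd3, the 10 largest differences in each direction among called transcripts above the median level, the 4 largest of each list with at least 3 members, and those opposite to wild type, with others marked as chosen after their values were seen. The list of histone genes had no member, and of 8 endoderm markers 0 were members. Of these markers Dab2, Lama1 and Sparc were listed for Mbd3abc KO but not for Mbd3ab KO. Other calls on the endoderm and TGF-beta lists are Eomes (higher), Rhox5 and Lefty1 (lower). The result of 1 called transcript of these lists is not reported here.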

Additional observations from a re-analysis of the deposited data

Results flagged for a closer look

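Nufip2, Ppid and Shcbp1 stood on opposite sides of wild type in the 2 mutants, which is why they were chosen. This choice, on the same libraries, fixes the direction of the difference between the mutants, so the values below describe it and are no separate test. The log2 difference, Mbd3abc KO minus Mbd3ab KO, was 1.70 for Nufip2 (adjusted p = 0.000855), 1.38 for Ppid (0.0043) and 2.09 for Shcbp1 (0.00386), in limma. All 3 lost their call with the GC trend removed within each library, as given above.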

How the results depend on the processing

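Against 118 calls, 35 higher and 83 lower, the number called was 117 with the deposited size factors, 99 with the median of ratios, 99 with TMM, 111 with edgeR and 128 with DESeq2, all within 1.5 times, and no transcript called in both the main test and an alternative changed sign. With only the 4 mutant libraries in the fit 73 were called, 49 of them lower, and 29 in place of 48 on the gene lists. Of the named genes 15 lost their call there. Among them were Ccnd1, Ciart, Cyp11a1, Ei24, Jag1, Krt17, Lamb1, Marveld2, Notch3, Nr1d1, Otx2, Pim2, Ppp2r2c and Slc27a2. At an adjusted p of 0.01, 45 were called, 12 higher and 33 lower, and 19 on the lists. Removing the GC trend left 17 higher calls. Leaving out 1 library gave 47 to 123 calls, 14 to 38 higher, 33 to 85 lower and 19 to 45 on the lists, and a log2 difference of Mbd3 from -2.59 to -2.13. The calls were 72 without ABC10D, 123 without ABCD7, 101 without ABF2, 47 without ABF3, 78 without E141 and 79 without E142, where a group with 1 library is assumed to vary like the others. Of 77 named genes 55 were called and 19 of these held in every alternative. Ccnd1, Jag1, Jak3, Krt17, Notch3, Ntn1 and Slc27a2 were among those not called with the median of ratios or TMM, Ciart and Lamb1 not with TMM, and Ccnd1, Ei24 and Notch3 not with edgeR. Some differences changed sign: on removing the GC trend Nufip2 (-0.0031), Pmaip1 (-0.25) and Eng (0.37), for Eng also with the median of ratios (0.014) or TMM (0.079), and on leaving out 1 library Acss1 (range -1.46 to 0.12), Ccnd2 (-2.59 to 0.35), Fabp3 (-0.19 to 0.96), Lamb3 (-1.18 to 0.0022) and Eng (-0.51 to 0.41). Of these only Nufip2 had been called. The causes were not tested. No paired analysis was possible because the columns carry no replicate numbers.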
